A study of Mus musculus with 6 samples.

Results

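The genes described here are 10 genes of mesothelium and simple epithelium, measured in fibroblast cultures grown from the adult mouse heart and tail. They are the uroplakins Upk3b and Upk1b, the surface proteins mesothelin (Msln), Muc16, Lrrn4 and Gpm6a, the transcription factor gene Bnc1, and the keratins Krt8, Krt18 and Krt19. A probe was assigned to a gene when the RefSeq accession printed for it on the array mapped to the gene's symbol. Of the 10 genes 9 had such a probe, 1 probe each, and none was found for Muc16. The heart group held 3 cultures and the tail group 3, each from the digested heart or skinned tail of male C57/Bl6-J mice of 8 weeks in the sample labels (8 to 10 weeks in the protocol). No treatment or transgene was applied to either group. Each culture was pooled from 2 animals and plated for 5 days, so it may hold cells other than fibroblasts, and RNA of each was hybridised to 1 array of a 1-colour (Cy3) design.

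Mesothelium is the flat, single-layered epithelium that lines the body cavities and the outside of the organs in them. On the heart it forms the epicardium, whose embryonic cells give rise to many cardiac fibroblasts. Mesothelial cells carry uroplakins and mesothelin on their surface and, unlike fibroblasts, fill their cytoplasm with keratins. A keratin filament is always built of a type I chain (Krt18, Krt19) paired with a type II chain (Krt8), and a chain without a partner is unstable. Simple keratins are not particular to mesothelium, since ducts, gut, hair follicle and the notochord also make them.

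Values are given as log2 of the processed signal minus the array's own 75th percentile over non-control probes, so 0 marks the signal that 75% of probes lie under. By the scanner software's flags, 99.3% of spots were well above background on heart 2, and 2748 were non-uniform. The other 5 arrays had 47.3% to 55.2% of spots well above background and 0 to 7 non-uniform spots. Over all probes, correlations of log2 signal were 0.742 to 0.764 for pairs with heart 2 and 0.957 to 0.988 for pairs without it. For tail 1 they were 0.988 (heart 1), 0.979 (heart 3), 0.969 (tail 2) and 0.957 (tail 3). For the tested genes described here, differences are therefore given by label on all 6 arrays and on 5 arrays without heart 2. They are also given on 4 arrays without heart 2 and tail 1. Differences of many genes named for comparison are given on these 4 arrays only. Heart 2 was left out for its scanner values, but earlier results of these data had also shown it to run against its label. Tail 1 was left out for its expression values, so p-values on 4 arrays are too small by an unknown amount. All 8 fibroblast genes on a list that includes Col1a1, Vim and Pdgfra were well above background on all 5 arrays other than heart 2.

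On most arrays these genes were dim. Below, values of the heart arrays and of the tail arrays are listed for replicates 1, 2 and 3. Of the 9 genes with a probe, 7, 8 and 3 were well above background on the heart arrays, against 6, 2 and 1 on the tail arrays. The Krt19 probe exceeded its array's 75th percentile on heart 2, tail 2 and tail 3, and no other of the 9 probes did so on any array. Bnc1 and Krt8 were well above background on no array other than heart 2, where nearly every spot was. Only 4 of the 9, namely Msln, Upk3b, Krt18 and Krt19, passed the filter for testing, which asked for signal well above background on every array of the heart or the tail group. Msln, Upk3b and Krt18 passed only through the heart group and Krt19 only through the tail group. That was the group with the higher mean each time, so the filter favoured the direction of each difference.

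**Figure D1:**
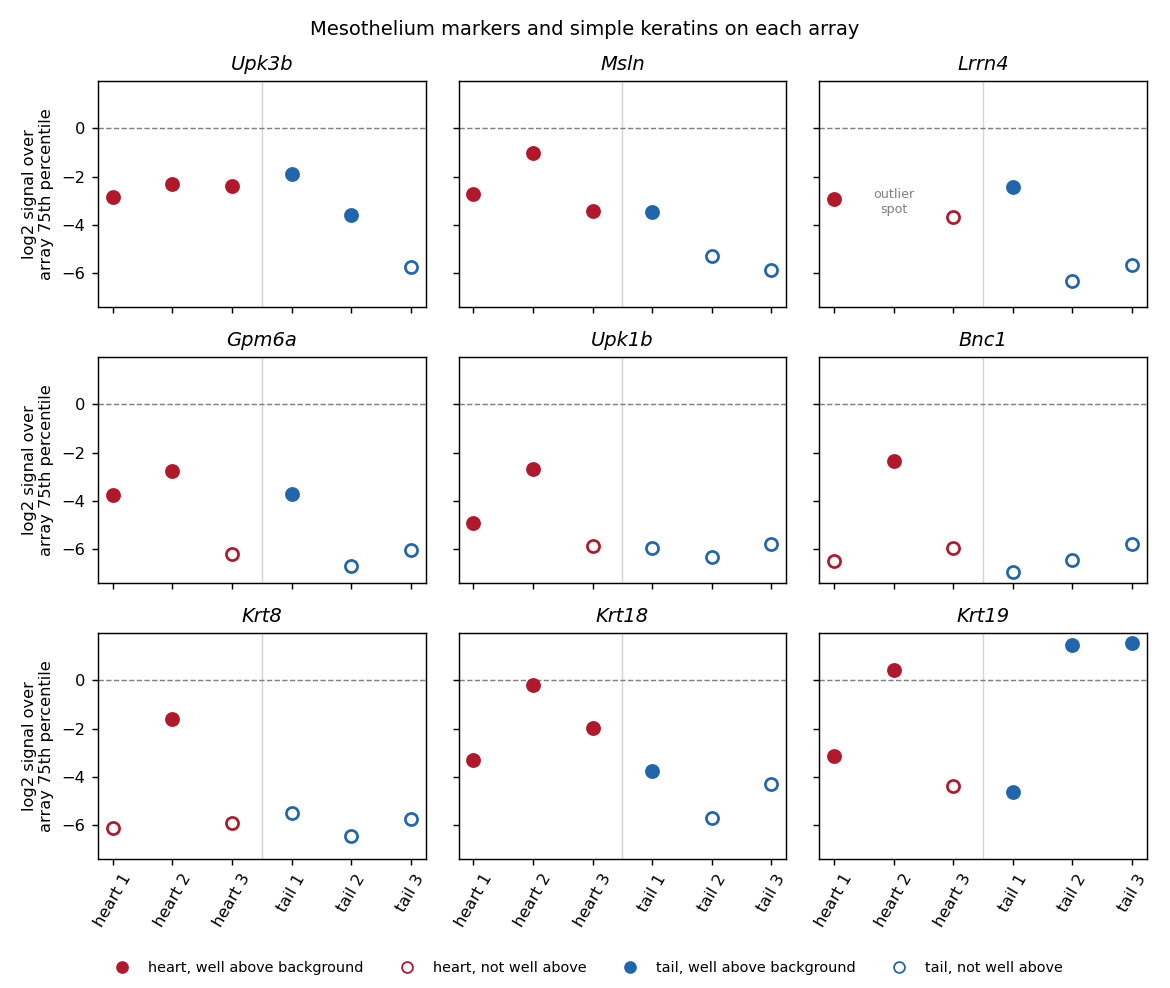
Log2 signal over the array's 75th percentile (y axis) of the 9 genes on the 3 heart arrays (red) and 3 tail arrays (blue), with filled points well above background and open points not. Krt19 on tail 2 and tail 3 lies above the dashed line at 0, while Msln, Lrrn4 and Krt18 on tail 2 and tail 3 are open.

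By label none of the tested genes passed. Limma called 0 of 20196 features on 6 arrays (0%) and 0 of 20280 on 5 arrays (0%), with 445 and 578 features at an unadjusted p under 0.05, among them 2 and 1 of the 4 tested genes. On 4 arrays it called 2956 of 20566 features (14.4%), of which 1593 were higher in heart (7.75%) and 1363 lower (6.63%). Of the 4 tested genes 1, Msln, was then called higher in heart and 1, Krt19, lower. Whether a lower signal means fewer cells of a type or less RNA per cell cannot be told apart in such bulk cultures.

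Of the keratins, Krt19 was lower in heart than in tail on 4 arrays. It encodes the smallest type I keratin, which lacks most of the tail domain of other keratins. Its log2 signal was -3.12, 0.45 and -4.36 on the heart arrays, against -4.64, 1.47 and 1.54 on the tail arrays. Tail 2 and tail 3 were the highest arrays, heart 2 came next, and tail 1 was the lowest of all, so the labelled groups overlapped. In rank, Krt19 lay at the 57.8th and 47.1th percentile of probes on heart arrays 1 and 3, against the 82.1th and 82.5th on tail 2 and tail 3. The software's own error estimate for the spot was 11.8% and 32.9% of the signal on heart 1 and heart 3, and 10.0% on each of tail 2 and tail 3.

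On 6 arrays Krt19 averaged -2.35 ± 2.50 in heart and -0.54 ± 3.55 in tail (SD, n = 3 each), a log2 difference of -1.80 (SE 1.81, limma adjusted p = 0.714). Without heart 2 the difference was -3.20 (SE 2.08, limma adjusted p = 0.697). On 4 arrays Krt19 averaged -3.74 ± 0.88 in heart and 1.51 ± 0.05 in tail (SD, n = 2 each). The log2 difference was -5.25 (SE 0.44, limma adjusted p = 0.00394), or 38.0-fold lower in heart, and of the 2 heart arrays 1 was well above background. Split by slide row, these 4 arrays gave -4.59 for heart 1 minus tail 2 in the upper row and -5.91 for heart 3 minus tail 3 in the lower. The upper row also held heart 2 and tail 1, and over all its 4 arrays the difference was 0.25, of the opposite sign. The authors' deposited table of 433 probes lists 1 of the 10 genes, Krt19, with a log2 fold change of -4.82 for heart over tail. The arrays and scaling behind that value are not stated, and by label on 6 arrays the difference here was -1.80.

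Krt18, a type I keratin that pairs with Krt8, had higher values in heart, and did not pass the test in any of the 3 comparisons. It stood at -3.29, -0.18 and -1.96 on the heart arrays, against -3.77, -5.72 and -4.31 on the tail arrays. Each heart array was above each tail array, and tail 2 and tail 3 were not well above background. The labelled groups did not overlap for Krt18 and Msln, both higher in heart, as for 2.05% of tested features, and no tested gene of the set had all heart arrays lower, as 8.32% of features did. Without heart 2 Krt18 and Msln again did not overlap (6.99% of features higher and 12.4% lower in heart without overlap). On 4 arrays Krt18, Msln and Upk3b were higher without overlap (25.5% of features) and Krt19 lower (36.9%), so separation alone says little there. In all 3 comparisons each tested gene had passed the filter only through the group where it was higher. The shares over all features are thus no fair measure for these genes. The difference of Krt18 was 2.79 on 6 arrays (SE 0.85, limma adjusted p = 0.714) and 1.97 on 5 (SE 0.71, limma adjusted p = 0.697). On 4 arrays it was 2.38 (SE 0.66, limma adjusted p = 0.0914), at least 2.78-fold. It was 2.42 for heart 1 minus tail 2 in the upper slide row and 2.35 for heart 3 minus tail 3 in the lower. Over all 4 arrays of the upper row, with heart 2 and tail 1, it was 3.01. With the slide row as a block Krt18 passed (limma adjusted p = 0.000907), as it did under median scaling (0.0177) or without tail 3 (0.0438), but it passed in only 3 of 12 alternatives. The difference was 0.60 with normexp (limma adjusted p = 0.226), 1.68 without tail 2 (0.252) and 1.72 without heart 3 (0.199). With all probes kept the adjusted p was 0.324.

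Krt8, the type II partner of both, was not well above background on 5 of the 6 arrays. Its log2 signal was -6.11, -1.61 and -5.92 on the heart arrays, against -5.52, -6.44 and -5.76 on the tail arrays. Apart from heart 2, the arrays were not separated by tissue. On tail 2 and tail 3, where Krt19 was bright, the Krt8 probe had processed signals of 4.44 and 8.48 units with an error estimate of 100.5% and 100.2%. A level of Krt8 was thus not measurable there, and nothing follows on whether the transcript was absent.

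Krt8 and Krt18 are encoded near each other on chromosome 15. Their promoter windows, shown because the probe of Krt18 was measured on heart 1, heart 3 and tail 1 and that of Krt8 on none of these, run from 250 bases before to 50 bases after the RefSeq transcription start (GRCm38.p6). They are chr15:102027966-102028265 on the plus strand for Krt18 and chr15:102004293-102004592 on the minus strand for Krt8. Capitals mark matches, on either strand, to any of 3 motifs. The first is the TATA box, searched as TATAAA. The second is the GC box, searched as GGGCGG. The last is the core bound by TEAD factors, searched as CATTCC.
Krt18: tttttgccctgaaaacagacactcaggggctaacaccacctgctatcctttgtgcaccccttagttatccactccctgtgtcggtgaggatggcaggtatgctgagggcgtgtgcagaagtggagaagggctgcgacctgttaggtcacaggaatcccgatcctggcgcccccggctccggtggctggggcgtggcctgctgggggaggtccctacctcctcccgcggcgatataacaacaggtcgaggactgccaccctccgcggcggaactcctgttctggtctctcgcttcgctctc
Krt8: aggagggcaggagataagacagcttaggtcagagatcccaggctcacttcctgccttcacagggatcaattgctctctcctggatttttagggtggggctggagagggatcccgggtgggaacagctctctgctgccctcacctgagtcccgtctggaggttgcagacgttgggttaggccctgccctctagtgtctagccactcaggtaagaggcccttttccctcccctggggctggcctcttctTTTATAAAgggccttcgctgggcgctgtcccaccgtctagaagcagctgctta
The Krt8 window holds TATAAA on each strand, overlapping each other and spanning the annotated start, and the Krt18 window holds none of the 3 motifs. Of all 32851 such windows 13.6% hold the TATA box, 35.7% the GC box and 14.7% the TEAD core.

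Among the surface proteins, Msln and Upk3b passed the filter for testing. Msln encodes mesothelin, a lipid-anchored protein of mesothelial cells that binds Muc16. It stood at -2.72, -1.04 and -3.44 on the heart arrays, against -3.47, -5.30 and -5.86 on the tail arrays. Each heart array lay above each tail array, but tail 1 was nearly level with heart 3 and was the only tail array well above background. Msln averaged -2.40 ± 1.23 in heart and -4.88 ± 1.25 in tail (SD, n = 3 each), a difference of 2.48 (SE 0.81, limma adjusted p = 0.714). Without heart 2 it was 1.80 (SE 0.76, limma adjusted p = 0.697).

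On 4 arrays Msln averaged -3.08 ± 0.51 in heart and -5.58 ± 0.39 in tail (SD, n = 2 each), a difference of 2.50 (SE 0.33, limma adjusted p = 0.0135). As neither tail array was well above background, the fold is only bounded, at least 2.03-fold higher in heart. The values were 2.58 for heart 1 minus tail 2 in the upper slide row and 2.42 for heart 3 minus tail 3 in the lower. Over all 4 arrays of the upper row, with heart 2 and tail 1, the difference was 2.51. The call was lost under normexp background correction (difference 0.52, limma adjusted p = 0.0891) and without a filter on dim probes (0.0977).

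Upk3b encodes a uroplakin, a plaque protein of bladder umbrella cells that mesothelium also makes. It stood at -2.85, -2.31 and -2.40 on the heart arrays, against -1.87, -3.60 and -5.76 on the tail arrays. The 3 heart arrays were close to each other, while the tail arrays spread widely, with tail 1 the highest of all arrays and tail 3 not well above background. The difference was 1.22 on 6 arrays (SE 0.89, limma adjusted p = 0.714), 1.12 on 5 (SE 1.14, limma adjusted p = 0.735) and 2.05 on 4 (SE 0.75, limma adjusted p = 0.163). The slide rows did not match, at 0.75 for heart 1 minus tail 2 and 3.36 for heart 3 minus tail 3. Over all 4 arrays of the upper row, with heart 2 and tail 1, the difference was 0.16. Of 12 alternatives on 4 arrays 1 called it, without tail 2, at 3.13 (limma adjusted p = 0.0136). Without tail 3 the difference was 0.98 (limma adjusted p = 0.254), and with normexp 0.70 (0.214). On 6 arrays it ran over the alternatives between 0.11 (quantile normalization) and 2.16 (without tail 1), with 0.22 without tail 3.

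**Figure D2:**
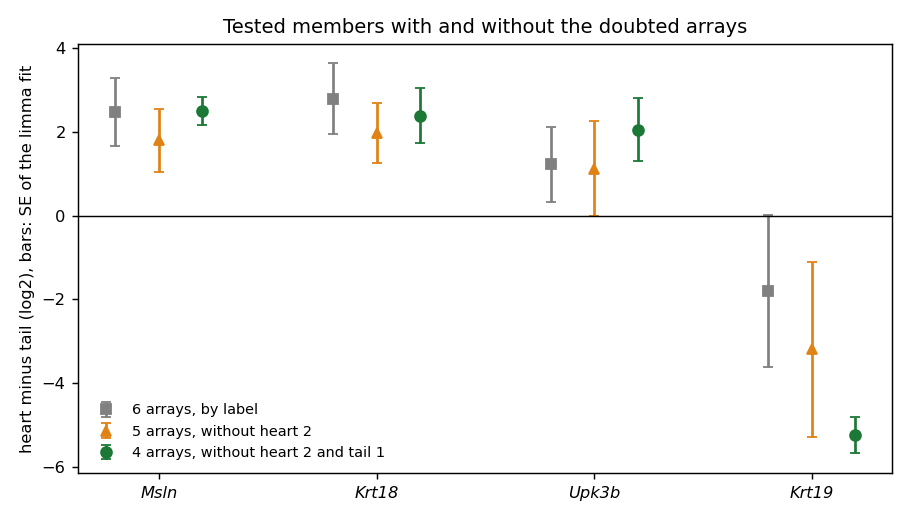
Heart minus tail difference (y axis, log2) of the 4 tested genes on all 6 arrays (squares), without heart 2 (triangles) and without heart 2 and tail 1 (circles), with bars of 1 SE of the limma fit. Msln, Krt18 and Upk3b lie above 0 and Krt19 below it in each of the 3, and Krt19 reaches -5.25 on 4 arrays.

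Lrrn4, a leucine-rich repeat membrane protein, and Gpm6a, a tetraspan glycoprotein of the proteolipid family best known from neurons, were not tested, because neither was well above background on heart 3, tail 2 or tail 3. Lrrn4 stood at -2.92 and -3.69 on heart arrays 1 and 3, against -2.45, -6.33 and -5.67 on the tail arrays, and its spot on heart 2 was an outlier and was left out. Heart 1 and tail 1 were well above background and tail 2 and tail 3 were at the bottom. Gpm6a stood at -3.75, -2.77 and -6.22 on the heart arrays, against -3.74, -6.70 and -6.06 on the tail arrays. Here heart 1 and tail 1 were level, and heart 3 lay among tail 2 and tail 3. With all probes kept on 4 arrays, Lrrn4 differed by 2.69 (limma adjusted p = 0.0997) and Gpm6a by 1.39 (0.682), and neither passed.

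Upk1b, a tetraspanin that pairs with other uroplakins, was well above background on heart 1 (-4.91) and heart 2 (-2.68) and on no other array. The remaining arrays lay between -6.35 and -5.80, heart 3 and the 3 tail arrays alike. Bnc1, a zinc finger factor of keratinocytes, germ cells and mesothelium, stood at -6.52, -2.35 and -5.96 on the heart arrays, against -6.97, -6.44 and -5.80 on the tail arrays. Only heart 2 was well above background. On that array Bnc1 and Upk1b lay at the 29.6th and 23.5th percentile of probes, below its median, so their flag there is no sign of a high rank.

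The windows of Upk3b, Lrrn4 and Gpm6a are shown because these are the surface genes in the RefSeq promoter table whose probes were well above background on heart 1 and tail 1 and lower on tail 2 and tail 3. They are chr5:136038246-136038545 (plus strand), chr2:132880813-132881112 (minus strand) and, for the upstream start of Gpm6a, chr8:54779184-54779483 (plus strand), all in GRCm38.p6 with motifs in capitals as above.
Upk3b: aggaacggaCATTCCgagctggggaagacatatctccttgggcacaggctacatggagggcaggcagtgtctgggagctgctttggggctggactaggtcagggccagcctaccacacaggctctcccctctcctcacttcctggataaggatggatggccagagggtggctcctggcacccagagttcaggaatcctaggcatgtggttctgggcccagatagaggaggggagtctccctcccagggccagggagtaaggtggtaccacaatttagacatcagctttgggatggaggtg
Lrrn4: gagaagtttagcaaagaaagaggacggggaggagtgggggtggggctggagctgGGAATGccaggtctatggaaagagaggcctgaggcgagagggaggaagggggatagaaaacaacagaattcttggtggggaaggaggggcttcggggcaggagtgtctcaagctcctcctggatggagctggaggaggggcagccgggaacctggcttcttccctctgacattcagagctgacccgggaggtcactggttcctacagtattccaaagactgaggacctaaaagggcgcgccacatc
Gpm6a: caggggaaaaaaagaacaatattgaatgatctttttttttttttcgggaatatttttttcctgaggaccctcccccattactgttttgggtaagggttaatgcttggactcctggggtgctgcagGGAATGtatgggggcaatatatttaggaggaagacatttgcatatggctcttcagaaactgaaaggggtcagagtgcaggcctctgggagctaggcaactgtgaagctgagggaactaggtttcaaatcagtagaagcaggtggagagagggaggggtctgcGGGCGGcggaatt
Each of the 3 windows shown holds CATTCC once, on the plus strand of the gene in Upk3b and on the minus strand in Lrrn4 and Gpm6a. The upstream Gpm6a window also holds GGGCGG. The window of the other Gpm6a start, chr8:54954478-54954777, holds no CATTCC and 1 TATAAA. Of the 8 windows found for 7 of the 10 genes, 3 hold the TEAD core, 2 the GC box and 2 the TATA box. A match of letters is not evidence that a factor binds there.

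The arrays labelled heart 2 and tail 1 lay differently among these genes. Tail 1 was nearer to the mean of heart 1 and heart 3 for Msln, Upk3b, Lrrn4, Gpm6a, Krt18 and Krt19, and nearer to that of tail 2 and tail 3 for Upk1b. For Krt18 it was close to midway, at -3.77 between means of -2.63 in heart and -5.01 in tail. Heart 2 was nearer to the mean of tail 2 and tail 3 for Krt19, at 0.45 against means of -3.74 in heart and 1.51 in tail, and nearer to heart for Msln, Upk3b, Gpm6a, Upk1b and Krt18. For Bnc1 and Krt8, which were not well above background on the other arrays, both means were near background and nearness says little. Heart 2 was also the highest array for Msln, Krt18, Krt8, Gpm6a, Upk1b and Bnc1. Its array-wide signal was raised, and the part this plays in these values was not tested. In rank on heart 2, Upk3b, Gpm6a and Upk1b lay at the 30.5th, 21.9th and 23.5th percentile of probes, below its median. Their nearness to heart there is thus no sign of a high rank. Msln and Krt18 lay at the 57.5th and 72.4th percentile on that array.

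Other mesothelium and epicardium genes moved in both directions on 4 arrays, with 7 of 13 tested higher in heart and 3 lower, and a median difference of 2.59 beside -0.07 over all features. None of the 13 passed on 6 or on 5 arrays. Aldh1a2, the retinoic acid enzyme of epicardium, averaged 7.22 in heart and -0.88 in tail (limma adjusted p = 0.000841). The transcription factor genes Tcf21 (5.33 in heart and -5.54 in tail, limma adjusted p = 0.000548) and Wt1 (-1.43 in heart and -6.28 in tail, at least 6.38-fold, limma adjusted p = 0.00251) were higher as well. On the left-out tail 1, Aldh1a2, Tcf21 and Wt1 stood at 7.24, 5.44 and -1.02, near heart 1 and heart 3. On heart 2 they stood at -0.44, -2.38 and -3.76. By label on 6 arrays their differences were 2.84, 4.64 and 2.32 (limma adjusted p = 0.714 each). Slpi, a secreted protease inhibitor of epithelia, was lower in heart, like Krt19. It stood at -3.41 and -2.21 on heart arrays 1 and 3, against 2.64 and 2.45 on tail arrays 2 and 3, a difference of -5.35 (SE 0.43, limma adjusted p = 0.00352). Slpi was at -1.93 on tail 1 and -0.82 on heart 2, and differed by -3.19 on 6 arrays (limma adjusted p = 0.714). Calb2, which encodes the mesothelial protein calretinin, was well above background on no array other than heart 2.

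Of 11 paralogues of these genes 5 were tested on 4 arrays, and 2 were higher in heart and 0 lower. Gpm6b, the sister gene of Gpm6a, was 15.6-fold higher (difference 3.97, SE 0.24, limma adjusted p = 0.00175), with 4.89 and 5.38 on heart arrays 1 and 3, against 1.31 and 1.03 on tail arrays 2 and 3. Lrrn2 was 3.83-fold higher (limma adjusted p = 0.00859). None of the 5 passed on 6 or on 5 arrays. There Gpm6b differed by 0.49 (limma adjusted p = 0.893) and 2.56 (0.697), and Lrrn2 by 0.50 (0.765) and 1.29 (0.697). Upk2, Upk3a, Mslnl, Muc4 and Lrrn1 were well above background on none of the 5 arrays other than heart 2.

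Among 4 other simple keratins, 1 was higher in heart and 1 lower. Krt23, a type I keratin, stood at -6.20 and -6.14 on heart arrays 1 and 3, against -2.35 and -2.02 on tail arrays 2 and 3, at least 4.94-fold lower in heart (limma adjusted p = 0.00117). Krt80, a type II keratin, averaged -0.20 in heart and -1.42 in tail, 2.33-fold higher in heart (limma adjusted p = 0.0212). Krt7 and Krt20 of that list were not tested. On 6 and on 5 arrays Krt80 did not pass and Krt23 was not tested.

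Markers of other cells with simple keratins were read from the same 4 arrays. Of 15 keratinocyte genes 7 were tested, 0 were higher and 1, Krt13, was lower in heart, and the list's summed signal in units of the 75th percentile was 8.42 to 9.21 in heart and 8.11 to 9.13 in tail. Of 12 epithelial adhesion and identity genes 6 were tested, Jup and Esrp2 were higher in heart and Dsp, the desmosomal keratin anchor, was at least 6.88-fold lower (limma adjusted p = 0.00186). The summed signal of that list was 1.34 to 1.75 in heart and 1.67 to 1.93 in tail. Its defining members Cdh1, Epcam and Grhl2 were well above background on none of the 5 arrays other than heart 2.

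Of 9 nucleus pulposus and notochord genes 4 were tested, 0 were higher and 2, Cd24a (21.4-fold) and Col2a1 (8.77-fold), were lower in heart. Their summed signal was 1.20 to 1.54 in heart and 5.74 to 6.38 in tail, while the defining factors T, Noto, Shh and Foxa2 were well above background on none of the 5 arrays. Of 6 smooth muscle genes 4 were lower in heart, led by Actg2 (44.5-fold, limma adjusted p = 0.00124), and 0 higher, with summed signals of 586 to 634 in heart and 1248 to 1526 in tail. Leukocyte genes (5 of 5) and endothelial genes (4 of 6) were called higher in heart, beside 7.75% of all features. The summed signal of leukocyte genes was 19.8 to 40.7 in heart and 1.60 to 2.47 in tail. That of endothelial genes overlapped, at 15.7 to 21.4 in heart and 18.8 to 25.2 in tail. Of 4 tested cardiomyocyte genes 1 was higher and 2 lower, beside 6.63% of all features lower. The part of any such cells in the difference of Krt19 or Msln was not tested.

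**Figure D3:**
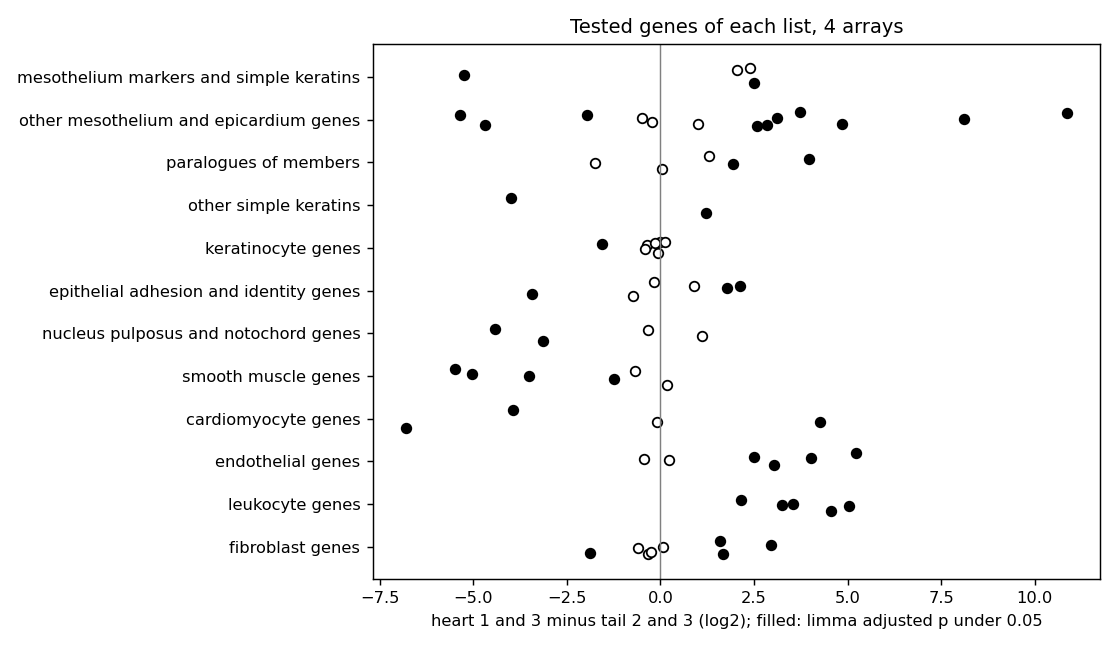
Heart 1 and 3 minus tail 2 and 3 (x axis, log2) for each tested gene of the 10 genes described and of 11 other lists (rows), with filled points at a limma adjusted p under 0.05. Krt19 lies at -5.25, and the other mesothelium and epicardium genes reach from -5.35 (Slpi) to 10.87 (Tcf21).

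The genes with the most similar profile were sought among 13673 named genes by the root mean square difference of centred log2 values over the 5 arrays other than heart 2. Nearest to Krt19 were Cavin4 (0.25), Arl4d (0.30) and the smooth muscle actin gene Actg2 (0.30), beside a median of 2.74 over all. Nearest to Msln were Tcim (0.07), Prex2 (0.10) and Cav3 (0.16), to Krt18 Cd200r4 (0.27), Lrriq4 (0.32) and Sox17 (0.46), and to Upk3b Lpar3 (0.18), Dennd1c (0.27) and Fam167b (0.27). Their medians over all genes were 1.24, 1.27 and 1.40. None of the 4 tested genes was among the 3 nearest of another, and the 5 values of each profile share arrays and scaling, so the likeness is a description.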

How the data were processed

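RNA of 6 cultures was measured on 1-colour Agilent arrays. The authors deposited spot intensities, per the file headers from Agilent Feature Extraction 11.0.1.1, background-subtracted and detrended but not scaled between arrays, and flags of other kinds per spot. The authors' deposited table gives log2 and linear fold ratios of heart over tail, with no statement of their method in the labels or files. Log2 processed signals minus each array's 75th percentile were used, without outlier spots, averaging spots of a probe. Of 55681 probes, 27235 were named by RefSeq accession and 17 by the deposited table. Probes well above background on all arrays of a group were kept, the brightest per gene, and fitted with limma 3.58.1 in R 4.3.3 (lmFit, eBayes, Benjamini-Hochberg adjusted p under 0.05). The fit was also run on simulated data with independent arrays and planted changes, which checks the code only. It does not bear on the choice of arrays. The normexp alternative used median spot signals. Python 3.11.15, pandas 2.3.3 and matplotlib 3.10.9 were used. A fold is given as at least N where no array of the dimmer group was well above background, against the higher of the probe's signal and the array's lowest signal well above background. Promoters came from RefSeq (GRCm38.p6), and array coordinates (mm9) were not used. The 10 genes, the lists and the 4-array comparison were chosen with earlier results of these data known. All 10 genes, up to 4 called genes with the largest differences per list, and 3 nearest profiles per measured gene are named by rule, and others for not being well above background. Replicates are the labels' biological replicates, and the number of arrays limits the precision.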

Additional observations from a re-analysis of the deposited data

How the results depend on the processing

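On 6 arrays 15 alternatives kept the sign of each of the 4 tested genes and called 0 of them, but the sizes varied (Upk3b 0.11 to 2.16, Msln 0.83 to 3.18, Krt18 1.27 to 3.53, Krt19 -3.85 to -0.76). They called 0 features, except 44 with the replicate number as a block (replicate block) and 217 without heart 1, so leaving out an array gave 0 to 217. The block left the differences of the 4 tested genes as they were. Same-numbered cultures did not deviate together in all pairs (correlations of 0.19, 0.26 and -0.33), so the numbers were not taken as pairs. On 6 arrays the median difference of all features was -0.40, and -1.33 under median scaling. Both scalings subtract 1 value per array, so Krt19 (-1.80, median scaling -2.73) moved with that shift. Its place relative to the shift was thus fixed and is no check.

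On 4 arrays Krt19 was called in all 12 alternatives that tested it (differences -5.87 to -3.77), and Msln in 10 of 12 (0.52 to 2.86). The number of these genes higher in heart, 1 in the comparison given, was 2 with median scaling or a slide row block, and 0 with normexp, with all probes kept, or when each of the 4 arrays had to show signal. When each array had to show signal, none of the 10 genes was tested and the number lower in heart was 0. Leaving out an array gave 1 to 3 genes higher and 1 lower. The highest number came without heart 3, where Lrrn4, Gpm6a and Upk1b entered through heart 1 alone, with differences of 3.08, 2.63 and 1.16. Entry in that way favoured a higher value in heart. Features called were 714 without a filter, over more and dimmer probes, and 1568 to 3948 when an array was left out, with 1901 without tail 2 and 1568 without tail 3. An arm left with 1 array was assumed to vary like the other. Genes near background have only bounds.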
